A study of Mus musculus with 9 samples.

Results

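Hippocampal RNA of mice labelled as having sepsis was compared here with that of mice labelled as sham-operated, in 6 of the 9 libraries of a study of sepsis-associated encephalopathy. The libraries named CTL came from adult, specific-pathogen-free BALB/c mice after a sham operation (3 libraries). Those named SAE came from mice of the same strain after cecal ligation and puncture and no other treatment (3 libraries). In this operation the cecum is tied off and pierced, so that gut bacteria leak into the abdomen. The remaining 3 libraries, from operated mice given 200 mg/kg of a flavonoid extract of Cuscuta chinensis, were left out of the filter, the scaling and the fit. The members were picked by column name alone, and 8011 of 38898 gene symbols passed a filter of a mean count of at least 10 over the 6 libraries. The sources used here do not give sex, age in weeks, the time after surgery or whether animals were pooled. The labels call the libraries of a group biological duplications numbered 1 to 3, so p-values measure the spread between these libraries.

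In sepsis, bacterial products and circulating cytokines reach the brain through its vessels, and microglia, astrocytes and endothelial cells answer with a shared set of genes. Pattern receptors signal through NF-kB to chemokines and adhesion molecules, interferons signal through STAT proteins to antiviral proteins and antigen presentation, and cytokines and adrenal steroids raise acute-phase and metal-binding proteins. In resting hippocampus most of these genes are nearly silent, and microglia instead carry receptors that survey the tissue.

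Library totals were 4626519 to 4895474 counts, and genes of low level were therefore limited by counting error. Markers of hippocampal excitatory neurons were abundant: Slc17a7, which encodes the vesicular glutamate transporter of these neurons, had 5568 to 6402 counts scaled to library size (CPM) in the 6 libraries, and C1ql2, a dentate gyrus gene, had 230 to 267. Libraries of 1 group resembled each other (Pearson r of log2 CPM across genes 0.987 to 0.989) more than libraries of different groups (0.927 to 0.943). The first principal component held 78.6% of the variance and separated the groups. The direction of the largest differences goes against the labels. Genes known to be raised by infection stood high in the libraries labelled CTL and low in those labelled SAE, as the values of Lcn2 below show. Each direction is therefore given by column label, "lower" meaning lower in the libraries labelled SAE. Whether the 2 sets of columns carry the right labels was not tested.

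Among the 8011 genes, 3821 were called at an adjusted p under 0.05 by edgeR's quasi-likelihood test (47.7%). The response was even in number: 1908 genes were higher (23.8%) and 1913 lower (23.9%), and the median log2 fold of all tested genes was 0.01. It was uneven in size. Past 2-fold there were 581 higher genes (7.25% of those tested) and 696 lower genes (8.69%). Past 4-fold there were 96 and 238, past 8-fold 17 and 116, and past 32-fold 1 and 35. Called genes under 1.5-fold numbered 1626, which is 42.6% of the calls. The log2 folds of called genes ran from −10.46 to 5.01. In 4459 genes (55.7%) the 3 SAE values and the 3 CTL values did not overlap.

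The share of genes called followed the counts behind them, from 30.8% of genes with a mean count of 10 to 20 up to 68.2% of those with 1000 or more. The median size of a called log2 fold fell the other way, from 1.38 to 0.28. The 238 genes lower by over 4-fold held 2.23%, 2.59% and 1.85% of all counts in CTL libraries 1 to 3. They held 0.211%, 0.217% and 0.188% in SAE libraries 1 to 3. The 96 genes higher by over 4-fold held 0.0288% to 0.0371% of counts in CTL and 0.167% to 0.189% in SAE libraries.

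**Figure D1:**
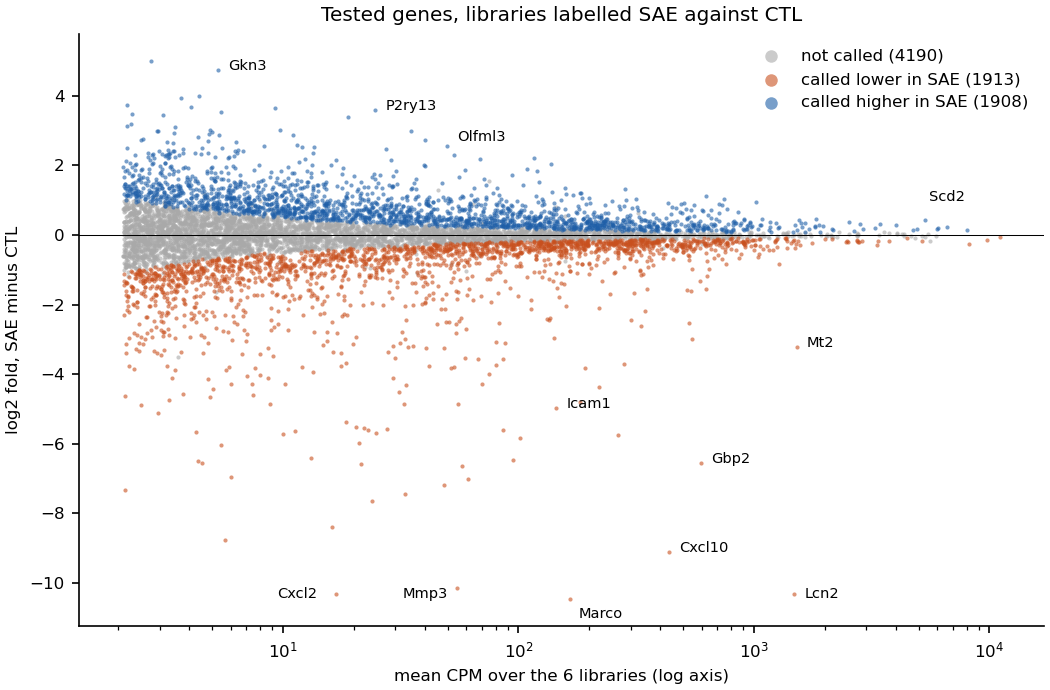
Each point is a tested gene, placed by its mean CPM over the 6 libraries (log axis) and its log2 fold, SAE minus CTL. The 1913 called lower genes reach −10.46, while the 1908 called higher genes stay at or under 5.01.

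Lcn2, which encodes lipocalin 2, an iron-chelator-binding protein of acute inflammation, carried the largest loss of RNA. It had 3041, 3094 and 2766 CPM in CTL libraries 1 to 3 and 2.74, 3 and 1.24 CPM in SAE libraries 1 to 3. The CTL values were level and stood far above every SAE value (log2 fold −10.31 ± 0.11 SE, adjusted p = 1.73e-15). Marco, a scavenger receptor of macrophages, had 337, 429 and 232 CPM in CTL libraries and 3 counts in all in the SAE libraries. The ratio of its group means was 1540, with a 95% counting interval of 527 to 7470. The log2 fold of Marco was −10.46 ± 0.68, and −11.31 without SAE library 2. Mmp3, the matrix protease stromelysin 1, had 118, 130 and 80.6 CPM in CTL libraries and 1 count in all in SAE libraries, a ratio of 1520 (272 to 60000). Its log2 fold of −10.14 became −12.02 without SAE library 2. Acod1, whose enzyme makes itaconate in activated macrophages, had 43.6, 74.1 and 25.3 CPM against 0, 0 and 0.618. Its ratio was 221 (75.4 to 1080), and its call was lost without SAE library 3 (adjusted p = 0.0739).

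The highest folds belonged to genes of low level. Gkn3, a gene of brain arterial endothelium, had 0.22, 0.417 and 0.418 CPM in CTL libraries and 10.5, 12.9 and 7.22 in SAE libraries (log2 fold 4.75 ± 0.43, adjusted p = 3.64e-09). Rbm3, an RNA-binding protein induced by cold, had 2.64, 1.04 and 0.418 CPM against 15.4, 20.8 and 15.5. Its log2 fold of 3.65 ± 0.33 became 4.50 without CTL library 1. Serinc2, a membrane protein gene, had 0.66 to 1.04 CPM in CTL and 9.28 to 10.8 in SAE libraries (log2 fold 3.53 ± 0.33), and the uncharacterised gene Gm39080 had 1.67 to 5.22 and 23.5 to 45.3 CPM (3.39 ± 0.39).

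Abundant genes were called at small folds. Scd2, a fatty-acid desaturase of brain, had 4531, 4403 and 4645 CPM in CTL libraries and 6206, 6000 and 6066 in SAE libraries (log2 fold 0.43 ± 0.03, adjusted p = 4.46e-11). Ddn, the postsynaptic protein dendrin, and Calm3, a calmodulin gene, were higher by 0.23 ± 0.03 and 0.19 ± 0.03. Hsp90ab1, a chaperone gene, had 8838 to 8957 CPM in CTL and 7220 to 7595 in SAE libraries (−0.27 ± 0.03, adjusted p = 2.92e-08). Eef1a1, the translation elongation factor, had a log2 fold of −0.14 ± 0.03. Cpe, the neuropeptide-processing carboxypeptidase and the most abundant called gene, had one of −0.07 ± 0.03 (adjusted p = 0.0395). Its call was lost with DESeq2 and without CTL library 2 or 3 or SAE library 1 or 2 (adjusted p 0.0553, 0.112, 0.179 and 0.183).

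**Figure D2:**
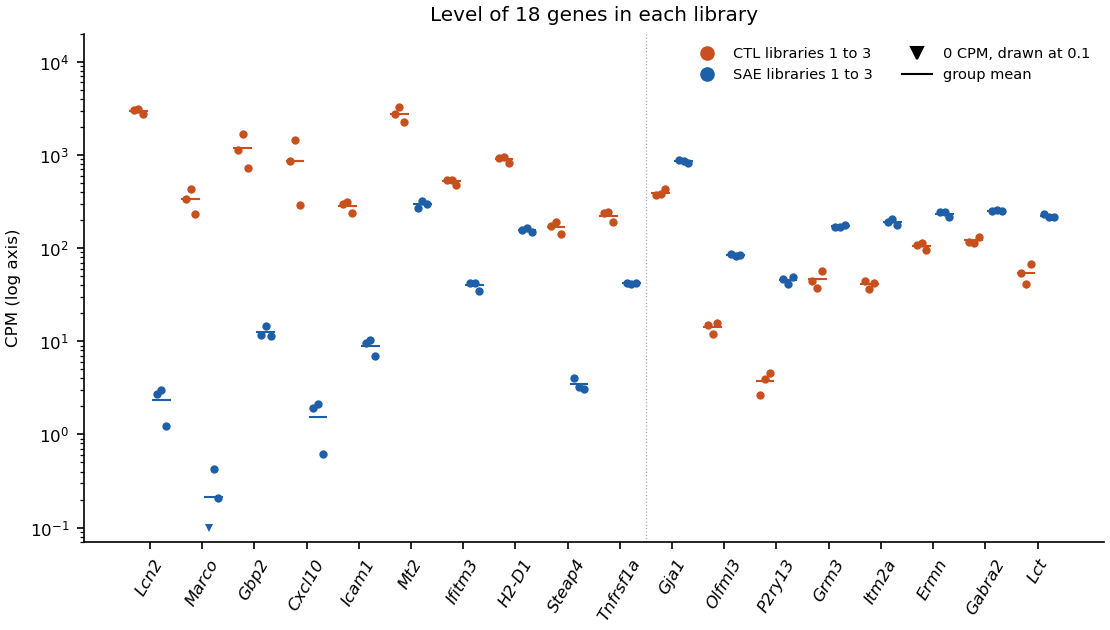
CPM of 18 genes (log axis) in each library, with lines at group means. The 10 genes left of the dotted line are lower and the 8 right of it are higher in every SAE library than in every CTL library.

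Secreted signals were mostly lower. Of 51 cytokine and chemokine genes listed, 19 passed the filter, of which 13 were lower and 4 higher (89.5% called, against 47.7% of all genes). Their median log2 fold was −2.78, against 0.01 for all genes. Over the 13 members with a mean count of at least 50 the median was −6.56. That mean is over both groups, so genes high in CTL libraries alone can pass it. The deeper median is therefore no separate support. Cxcl1, a neutrophil attractant, had 95.7, 148 and 97.9 CPM in CTL libraries and 0.643 to 1.65 in SAE libraries (log2 fold −6.63 ± 0.34, adjusted p = 1.92e-06). Cxcl2, its close relative, had 25.1, 51.8 and 23.8 CPM in CTL libraries and no count in SAE libraries, so it was at least 156-fold lower there. Tnfsf8, the ligand of CD30, had 10.7 to 12.3 CPM in CTL libraries and also no SAE count, which makes it at least 52.5-fold lower. Ccl5, which attracts T cells and monocytes, had 99.7, 163 and 101 CPM against 0.422, 1.29 and 1.03 (−7.02 ± 0.46, adjusted p = 8.54e-05). Of 32 members that did not pass the filter, Cxcl13 had 8, 11 and 12 counts in CTL libraries and 0 in each SAE library, while Il6 had no count in any.

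The chemokines with the widest spread were less certain. Cxcl10, which attracts T cells under interferon, had 865, 1457 and 292 CPM in CTL libraries and 1.9, 2.14 and 0.618 in SAE libraries. All 3 CTL values lay above the SAE values but spread widely among themselves (log2 fold −9.12 ± 1.29, adjusted p = 0.00532). Without CTL library 2 the log2 fold was −8.53, and with limma-voom the adjusted p was 0.292. Ccl2, the monocyte attractant, had 51.7, 125 and 20 CPM against 0.633, 0.429 and 0 (−7.44 ± 1.58, adjusted p = 0.0198). Its call was lost when any of the 3 SAE libraries was left out (adjusted p 0.0764, 0.0768 and 0.0782), and its log2 fold was −6.57 without CTL library 2. Over all alternative fits its adjusted p reached 0.181.

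4 ligands were higher. Cxcl12, which holds cells in place through the receptor CXCR4, had 72.2 to 78.6 CPM in CTL and 126 to 140 in SAE libraries (0.85 ± 0.07, adjusted p = 2.57e-09). Cx3cl1, the neuronal ligand of the microglial receptor Cx3cr1, had 1155 to 1214 and 1297 to 1381 CPM (0.20 ± 0.04). Ccl27a (0.71 ± 0.09) and Il17d (0.51 ± 0.13) were the others.

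The 10 tested of 28 acute-phase and iron-handling genes were all called lower (median −2.95). Steap4, a metalloreductase induced by cytokines, had 174, 191 and 141 CPM in CTL libraries and 4.01, 3.22 and 3.09 in SAE libraries (−5.61 ± 0.15, adjusted p = 3.9e-16). Pglyrp1, which binds bacterial peptidoglycan, had 89 to 97.7 and 13.1 to 18.4 CPM (−2.57 ± 0.12). Trf, which encodes transferrin and is made by oligodendrocytes, was the member that moved least, from 1279 to 1325 CPM down to 1072 to 1211 (−0.18 ± 0.04). Its list and the reactive astrocyte and glucocorticoid lists share Lcn2.

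Genes of clotting and its control were lower in 8 of 12 tested members and higher in 1 (75.0% called, against 47.7% of all genes). Plat, the tissue plasminogen activator, had 402 to 532 CPM in CTL and 143 to 160 in SAE libraries (−1.66 ± 0.11). Procr, the endothelial protein C receptor, was lower by −3.10 ± 0.38 on the log2 scale. Thbd, thrombomodulin, was not called (69.3 to 78.6 and 59.8 to 71.6 CPM, −0.18 ± 0.09), but was without CTL library 2 (adjusted p = 0.0472).

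Enzymes of lipid mediators were mixed, with 4 of 9 tested members lower and 2 higher (66.7% called, against 47.7% of all genes). Ptges, the inducible prostaglandin E synthase, had 26.7 to 37.6 CPM in CTL and 1.9 to 2.89 in SAE libraries (−3.77 ± 0.22, adjusted p = 1.71e-12). Ptgs2, the cyclooxygenase that feeds it and that hippocampal neurons also express, had 144 to 166 and 113 to 130 CPM (−0.39 ± 0.07). Alox15, a lipoxygenase, was higher (1.18 ± 0.19).

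Of 14 tested matrix proteases and inhibitors 8 were lower and 3 higher (78.6% called, against 47.7% of all genes). Adamts1, a proteoglycan-cutting protease, had 994, 1085 and 826 CPM in CTL libraries and 125, 125 and 118 in SAE libraries (−2.98 ± 0.11, adjusted p = 3.24e-06). Mmp14, a membrane-bound protease, had 203 to 244 and 77.6 to 90.3 CPM (−1.42 ± 0.08). Mmp15, of the same membrane-bound type, went the other way, from 36.1 to 52.8 up to 132 to 155 CPM (1.72 ± 0.11, adjusted p = 3.96e-09).

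Receptors that sense microbes were lower in 11 of 15 tested members and higher in none (73.3% called, against 47.7% of all genes). Fpr1 and Fpr2 detect formylated bacterial peptides. Fpr1 had 53.5, 55.5 and 37.8 CPM in CTL libraries and 0.825 to 1.07 in SAE libraries (−5.70 ± 0.25, adjusted p = 1.2e-14). Fpr2 was lower by −6.41 ± 0.36, or −7.63 without SAE library 1. Cd14, the co-receptor of endotoxin, had 47.8, 77.4 and 43.9 CPM against 5.9, 9.44 and 4.33 (−3.11 ± 0.37), while Tlr4, the endotoxin receptor, changed less (−1.23 ± 0.20). Myd88, the adaptor of most Toll-like receptors, was lower by −1.83 ± 0.14. The kinases Irak1 and Irak4 and the adaptors Ticam1 and Ticam2 were not called.

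Cytokine receptors divided. Of 16 tested, 8 were lower and 4 higher (75.0% called, against 47.7% of all genes). Tnfrsf1a, the broadly expressed TNF receptor, had 237, 242 and 189 CPM in CTL libraries and 42.6, 41 and 42.1 in SAE libraries (−2.41 ± 0.09, adjusted p = 6.16e-14). Tnfrsf1b, the TNF receptor of microglia and vessels, was lower by −1.36 ± 0.13. The 2 chains of the interferon-gamma receptor moved apart, Ifngr1 by −0.64 ± 0.10 and Ifngr2 by 0.39 ± 0.05.

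Receptors of phagocytes were mostly lower. Msr1, a scavenger receptor, had 97.3, 98.1 and 92.3 CPM in CTL libraries and 0.844, 0.429 and 0.618 in SAE libraries (−7.19 ± 0.19, adjusted p = 1.4e-18). Ms4a6d, a membrane gene of activated myeloid cells, had 59.6 to 66.8 and 1.72 to 2.53 CPM (−4.85 ± 0.18). Fcgr4, an antibody receptor, was lower by −5.54 ± 0.25, or −6.28 without SAE library 3, and Fcer1g, the signalling chain of such receptors, by −2.13 ± 0.11. Tyrobp, the signalling adaptor of microglial receptors, was not called (43.4 to 56.4 and 39.9 to 44 CPM, adjusted p = 0.0716), but was without CTL library 2 (adjusted p = 0.0205). Mrc1, the mannose receptor of border macrophages, was higher, from 7.1 to 9.4 up to 19.8 to 24 CPM (1.46 ± 0.18). Of the 12 tested receptors of this list 8 were lower and 1 higher (75.0% called, against 47.7% of all genes). In bulk tissue, fewer cells of a type and less RNA per cell cannot be told apart.

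Inside the cell, 6 of 10 tested genes of the NF-kB system were lower and 1 higher (70.0% called, against 47.7% of all genes). Nfkbia, the inhibitor that NF-kB itself induces, had 346, 431 and 288 CPM in CTL libraries and 93.6, 97.2 and 57.5 in SAE libraries (−2.10 ± 0.28, adjusted p = 0.00412). Tnip2, a partner of the inhibitor A20, had 192 to 233 and 92.6 to 102 CPM (−1.13 ± 0.07, adjusted p = 1.6e-11). Ikbkb, which encodes the activating kinase, was the higher member, from 3.55 to 5.28 up to 11.5 to 15 CPM (1.67 ± 0.23). In the JAK-STAT list 4 of 11 were lower and 1 higher, a share of calls (45.5%) close to that of all genes. Stat2, the interferon signal carrier, had 373, 440 and 312 CPM against 123, 112 and 110 (−1.70 ± 0.14, adjusted p = 0.000236), and Ptpn2, a phosphatase that turns the pathway down, was higher (0.84 ± 0.12).

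Genes that interferons induce were lower as a group. All 9 tested members of the large GTPases that attack intracellular microbes were lower (median −4.80, of 17 listed). Over the 6 with a mean count of at least 50 the median was −5.57, but this cutoff can be passed on CTL counts alone. Gbp2 had 1143, 1665 and 733 CPM in CTL libraries and 11.8, 14.6 and 11.5 in SAE libraries (−6.54 ± 0.52, adjusted p = 0.000703). Igtp had 366, 432 and 264 CPM against 13.5, 13.3 and 11.3 (−4.80 ± 0.29, adjusted p = 0.000248), and Irgm2 had 129 to 181 against 16.5 to 21.3 (−3.09 ± 0.14). Near-identical copies such as Tgtp1 and Tgtp2 can share reads, so their split is uncertain.

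Antiviral proteins followed, with 14 of 15 tested members lower and none higher (median −2.82, of 36 listed). This was 93.3% called, against 47.7% of all genes. Ifitm3, which blocks viral entry, had 545, 544 and 470 CPM in CTL libraries and 42.2, 42.7 and 34.8 in SAE libraries (−3.70 ± 0.08, adjusted p = 9.85e-17). Ifit1, which binds viral RNA, had 108, 120 and 60.6 CPM against 6.12, 10.5 and 3.92 (−3.81 ± 0.48), and Parp12 had 170 to 188 against 44.6 to 51.2 (−1.87 ± 0.08). Usp18, which shuts off the interferon receptor, was lower by −2.81 ± 0.20.

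Promoters of a few lower genes were picked by hand and are printed below. Marked in them are letters that interferon, NF-kB or metal-response factors are known to bind. Whether these sites play a part in the folds was not tested. Letters come from RefSeq's promoter table of build GRCm38.p6, 5′ to 3′ on the gene's strand, and each stretch ends before the start of transcription, whose first base is counted as 0. Capitals mark matches to the interferon-stimulated response element (ISRE, GAAANNGAAA, on either strand) in Gbp2, Igtp and Ifit1. In Cxcl10 they mark the ISRE (at −213) and the NF-kB consensus (at −159 and −103). In Cxcl1 they mark 2 overlapping NF-kB matches, which start at −71 and −70. In Mt2 they mark metal-response elements (TGCACNC or TGCGCNC, either strand).
Gbp2, chr3:142620543-142620662, plus strand: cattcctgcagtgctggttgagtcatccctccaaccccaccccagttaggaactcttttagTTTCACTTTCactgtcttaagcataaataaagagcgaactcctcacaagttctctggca
Igtp, chr11:58199436-58199555, plus strand: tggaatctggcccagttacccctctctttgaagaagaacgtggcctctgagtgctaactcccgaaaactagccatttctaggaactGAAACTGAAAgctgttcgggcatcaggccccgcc
Ifit1, chr19:34640769-34640888, plus strand: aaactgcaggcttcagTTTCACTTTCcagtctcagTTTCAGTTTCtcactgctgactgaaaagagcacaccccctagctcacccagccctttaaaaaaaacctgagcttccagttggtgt
Cxcl10, chr5:92348890-92349119, minus strand: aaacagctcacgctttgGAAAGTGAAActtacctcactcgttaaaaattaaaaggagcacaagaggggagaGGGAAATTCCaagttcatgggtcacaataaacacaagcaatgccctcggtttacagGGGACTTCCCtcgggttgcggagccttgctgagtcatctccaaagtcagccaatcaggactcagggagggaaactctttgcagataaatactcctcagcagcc
Cxcl1, chr5:90891125-90891244, plus strand: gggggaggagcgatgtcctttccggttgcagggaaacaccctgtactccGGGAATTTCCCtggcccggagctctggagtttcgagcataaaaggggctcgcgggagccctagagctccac
Mt2, chr8:94172378-94172617, plus strand: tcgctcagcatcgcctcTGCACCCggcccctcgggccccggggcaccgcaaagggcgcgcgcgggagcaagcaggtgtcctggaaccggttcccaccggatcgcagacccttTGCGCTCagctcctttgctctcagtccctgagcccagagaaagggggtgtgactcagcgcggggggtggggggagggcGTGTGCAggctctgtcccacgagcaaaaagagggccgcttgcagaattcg

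Over windows of 250 bases before and 50 after each start, the ISRE letters stood in 3.43% of all 32817 windows of the table and in 2.72% of the windows of tested genes. Among genes lower by over 4-fold they stood in 26 of 190 windows (13.7%). For genes lower by over 2-fold this was 42 of 608 (6.91%), and for genes higher by over 2-fold 9 of 507 (1.78%). Of the 17 windows found for the 24 interferon-induced proteins and GTPases tested, 13 held them. The NF-kB consensus stood in 4.50% of all windows and in 5.57% of those of tested genes. It stood in 11.6% of those of genes lower by over 4-fold and in 7.4% for genes lower by over 2-fold. For genes higher by over 2-fold the share was 4.14%. The metal-response letters are short and stood in 25.7% of all windows, in 35.3% of those of tested genes and in 21.1% of those of genes lower by over 4-fold. A window was found for 6093 of the 8011 tested genes. These shares describe letters in a window, not binding.

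Antigen presentation genes were mostly lower, and the 2 higher ones were class II genes of low level. Of 16 tested members 10 were lower and 2 higher (75.0% called, against 47.7% of all genes). H2-T23, a nonclassical class I gene, had 256, 254 and 245 CPM in CTL libraries and 32.1, 31.1 and 33.6 in SAE libraries (−2.96 ± 0.07, adjusted p = 3.74e-19). Psmb8, a subunit of the immunoproteasome, had 137 to 161 and 10.1 to 12.4 CPM (−3.73 ± 0.11). H2-D1, a classical class I gene, had 818 to 953 and 150 to 164 CPM (−2.52 ± 0.06), and B2m, the chain shared by class I molecules, 756 to 806 and 242 to 274 (−1.59 ± 0.05). The class II genes H2-Eb1 (0.98 ± 0.27) and H2-Aa (0.92 ± 0.28) were higher at a level of 3.55 to 12.7 CPM, and H2-Aa lost its call without SAE library 2 (adjusted p = 0.0771). H2 genes are close copies, so reads may be shared among them.

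**Figure D3:**
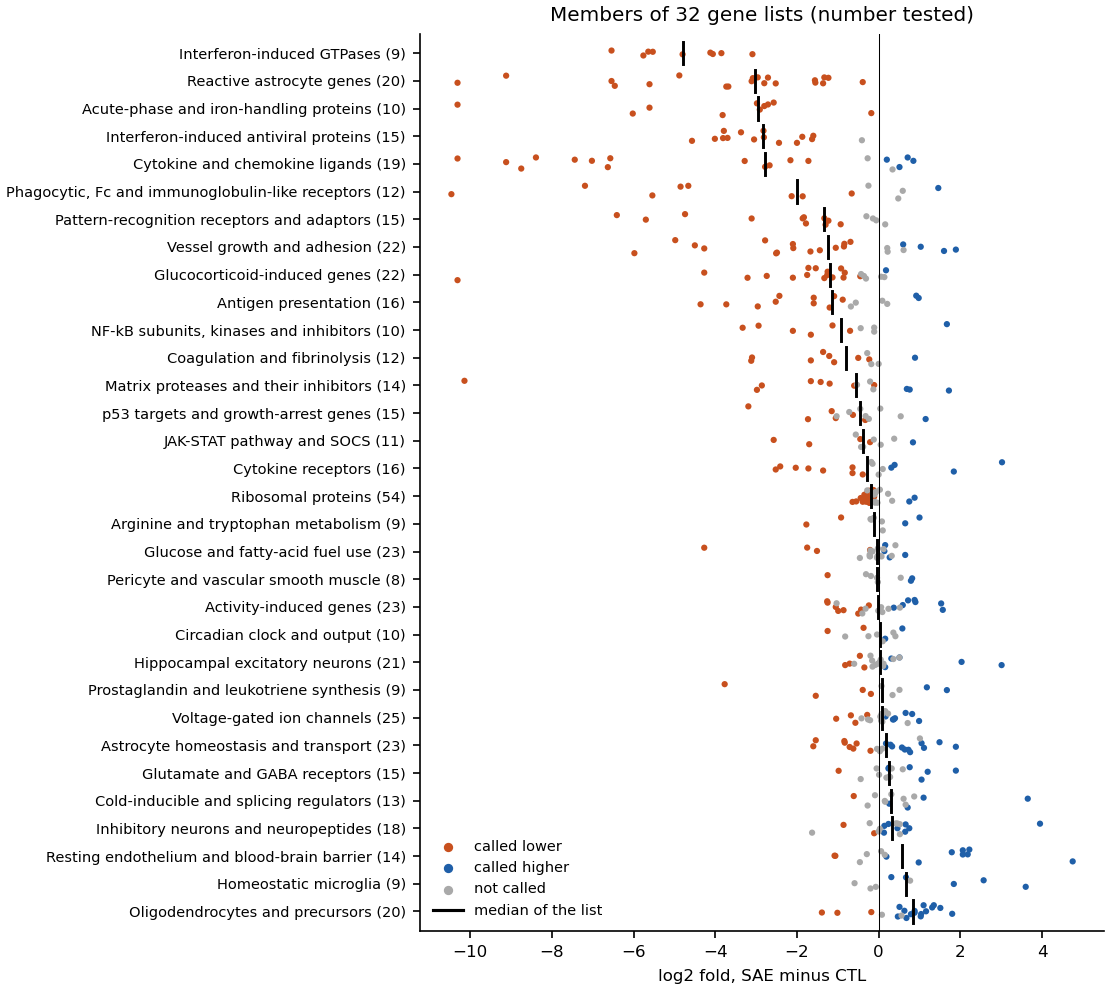
Each point is a tested member of 32 gene lists, placed by its log2 fold (SAE minus CTL), and black lines mark list medians. Medians run from −4.80 for interferon-induced GTPases to 0.83 for oligodendrocyte genes.

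Of the 32 lists drawn in the plot of list members, 10 had a median under −1, 3 had one above 0.5 and 16 lay between −0.5 and 0.5. These lists share members and hold only what passed the filter.

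All 20 tested genes listed for reactive astrocytes were lower (median −3.02, of 37 listed). The list shares Lcn2, Steap4, H2-T23, H2-D1 and Psmb8 with other lists, and other cell types also express such genes. Gfap, the astrocyte filament, had 26.9, 29.8 and 24.4 CPM in CTL libraries and 4.01, 2.36 and 5.15 in SAE libraries (−2.80 ± 0.21, adjusted p = 1.9e-10). It has several RefSeq rows, and its level may stand for only part of the gene. Vim, the companion filament vimentin, has more counts behind it, with 528, 511 and 538 CPM against 186, 197 and 156 (−1.55 ± 0.07). Ptx3, a pentraxin of this list, had 193, 301 and 70 CPM against 1.86 to 2.36 (−6.46 ± 1.03, adjusted p = 0.00796). With limma-voom its adjusted p was 0.144.

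Genes of astrocyte transport went both ways, with 11 of 23 tested members higher and 8 lower (median 0.18; 82.6% called, against 47.7% of all genes). Gja1, the gap-junction protein connexin 43, had 374, 381 and 426 CPM in CTL libraries and 875, 865 and 817 in SAE libraries (1.11 ± 0.05, adjusted p = 1.31e-14). Slc6a11, a GABA transporter of astrocytes, had 480 to 509 and 796 to 845 CPM (0.73 ± 0.04), and Grm3, a glutamate receptor of astrocytes and neurons, 37.2 to 56.2 and 168 to 177 (1.89 ± 0.11). Htra1, a secreted protease, was lower, from 919 to 1043 down to 539 to 565 CPM (−0.83 ± 0.05). Glul, the glutamine synthetase, was higher by 0.18 ± 0.03, and Aqp4, the water channel, was lower at a level of 0.844 to 5.01 CPM, with the same limit as Gfap from several RefSeq rows.

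Homeostatic microglia genes, which mark the surveying state, were higher in 5 of 9 tested members and lower in none (median 0.67, of 28 listed). Their share of calls was 55.6%, against 47.7% of all genes. The median was 0.38 without CTL library 2 and 1.15 without CTL library 3. Olfml3, a secreted microglial protein, had 15, 12.1 and 15.7 CPM in CTL libraries and 86.5, 83 and 85.1 in SAE libraries (2.57 ± 0.12, adjusted p = 1.31e-14). P2ry13, a receptor for extracellular ADP, had 2.64, 3.97 and 4.59 CPM against 47, 41.2 and 49.1 (3.60 ± 0.18, adjusted p = 1.28e-13). Csf1r, the receptor on which microglial survival rests, had 301 to 365 and 401 to 441 CPM, a smaller difference (0.31 ± 0.06).

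Genes of vessel growth and adhesion were mostly lower, 15 of 22 tested, with 4 higher (median −1.25). Their share of calls was 86.4%, against 47.7% of all genes. Icam1, the adhesion molecule that holds leukocytes to the vessel wall, had 295, 313 and 237 CPM in CTL libraries and 9.49, 10.3 and 7.01 in SAE libraries (−4.98 ± 0.15, adjusted p = 3.3e-10). Selp, P-selectin, which starts leukocyte rolling, had 48.6, 27.3 and 48.9 CPM against 0.844, 0.214 and 0.825 (−5.98 ± 0.39). Vcam1, another adhesion molecule, changed less, from 228 to 272 down to 139 to 148 CPM (−0.84 ± 0.07). Angpt2, which loosens vessel walls, had 54.5 to 57 and 6.18 to 10.1 CPM (−2.78 ± 0.15). Apln, the apelin peptide of sprouting vessels, was higher (1.60 ± 0.13).

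Genes of resting endothelium were higher in 8 of 14 tested members and lower in 2 (71.4% called, median 0.58). Over the 9 members with a mean count of at least 50 the median was 0.16. The summed level of the 14 overlapped between the groups, with 974 to 1160 CPM in CTL and 986 to 1060 in SAE libraries. Itm2a, a membrane gene of brain endothelium, had 44.9, 36.3 and 42 CPM in CTL libraries and 193, 203 and 179 in SAE libraries (2.22 ± 0.08, adjusted p = 5.08e-16). Slc38a5, an amino-acid transporter of the barrier, had 3.34 to 5.43 and 19.4 to 21.4 CPM (2.18 ± 0.20). Cldn5, the tight-junction protein claudin 5, was lower, from 145 to 176 down to 72.1 to 81.4 CPM (−1.06 ± 0.08). Of 8 tested genes of pericytes and smooth muscle 2 were higher, among them Rgs5 (0.82 ± 0.05), a pericyte marker, and 1 was lower (37.5% called, against 47.7% of all genes).

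Of 20 tested genes of oligodendrocytes and their precursors 15 were higher and 3 lower (median 0.83). Ermn, a protein of late myelination, had 107, 113 and 96.3 CPM in CTL libraries and 247, 242 and 215 in SAE libraries (1.16 ± 0.07, adjusted p = 4.44e-12). Mog, a myelin surface protein, had 40.5 to 49.9 and 106 to 127 CPM (1.35 ± 0.09), and Cnp, a myelin enzyme, 45.3 to 47.4 and 91.9 to 105 (1.10 ± 0.09). Olig1, a transcription factor of the lineage, had 155, 137 and 194 CPM against 418, 388 and 404 (1.31 ± 0.12). Mobp, a myelin protein, was not called (229 to 295 and 232 to 290 CPM).

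In 5 neuronal lists 42.9% to 65.2% of tested members were called, against 47.7% of all genes. Excitatory neuron markers were higher in 5 of 21 tested members and lower in 4 (median 0.03). Lct, a dentate granule cell marker, had 54.6, 40.9 and 67.5 CPM in CTL libraries and 232, 216 and 216 in SAE libraries (2.03 ± 0.16, adjusted p = 5.91e-05). Trpc6, a cation channel also used as a dentate marker, had 0.66 to 1.67 and 7.08 to 10.3 CPM (3.01 ± 0.35). C1ql2, of the same cells, was not called (230 to 248 and 258 to 267 CPM, adjusted p = 0.0817, or 0.0214 when only genes with 1 RefSeq row were tested), and neither were Calb1, Wfs1 and Pou3f1, markers of dentate and CA1 neurons. Slc17a7 was higher by 0.16 ± 0.03.

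Inhibitory neurons and neuropeptides had 8 of 18 tested members higher and 2 lower. Nos1, the neuronal nitric oxide synthase, had 395, 359 and 379 CPM in CTL libraries and 567, 620 and 589 in SAE libraries (0.65 ± 0.05, adjusted p = 1.06e-10). Crhr1, the receptor of corticotropin-releasing hormone, had 0.44, 0 and 0.835 CPM against 6.54, 7.08 and 7.22 (3.95 ± 0.48). Its log2 fold was 4.85 without CTL library 3. Among transmitter receptors 6 of 15 were higher and 1 lower. Gabra2, a GABA receptor subunit, had 117, 113 and 133 CPM against 248, 256 and 250 (1.05 ± 0.06, adjusted p = 2.73e-12), and Grm2, a presynaptic glutamate receptor, had 105 to 121 and 248 to 273 (1.20 ± 0.06). Of 25 tested voltage-gated channels 8 were higher and 4 lower, with Scn2b, a sodium channel subunit, at 0.99 ± 0.12 and Kcna1, an axonal potassium channel, at −0.28 ± 0.04.

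Genes that neuronal firing induces went both ways: 7 of 23 tested were higher and 8 lower (median −0.01). Npas4, which calcium entry into neurons induces, had 5.06, 6.68 and 5.64 CPM in CTL libraries and 17.1, 15.2 and 19.6 in SAE libraries (1.57 ± 0.20, adjusted p = 8.29e-07). Egr1 had 375, 369 and 297 CPM against 590, 630 and 692 (0.88 ± 0.11), and Bdnf, a nerve growth factor, 5.85 to 6.6 and 10.1 to 14.4 (0.90 ± 0.22). Dusp1, a phosphatase that stress and steroids also induce, was lower, from 179 to 200 down to 67.6 to 99.4 CPM (−1.26 ± 0.14). Gadd45g, a stress-response gene, was lower by −1.05 ± 0.09.

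Genes that glucocorticoids induce were lower in 16 of 22 tested members and higher in 1 (median −1.19). Their share of calls was 77.3%, against 47.7% of all genes. Mt2, a metal-binding protein raised by steroids, zinc and cytokines, had 2723, 3246 and 2244 CPM in CTL libraries and 270, 320 and 296 in SAE libraries (−3.21 ± 0.18, adjusted p = 0.000208). Its printed promoter holds 3 matches to the metal-response letters. Fkbp5, a co-chaperone of the steroid receptor, had 825, 852 and 853 CPM against 348, 353 and 304 (−1.33 ± 0.05, adjusted p = 1.27e-15). Klf9 had 1528 to 1730 and 881 to 980 CPM (−0.83 ± 0.05). Sgk1, Tsc22d3 and Zbtb16, which also respond to glucocorticoids, were not called. Tsc22d3 had 36.7 to 48.2 and 20.8 to 40.7 CPM. It was called without SAE library 2 (adjusted p = 0.00843), and Sgk1 without CTL library 3 (0.0429).

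In metabolism, Pdk4, which turns glucose away from the mitochondria, had 158, 171 and 131 CPM in CTL libraries and 50.6, 43.8 and 42.3 in SAE libraries (−1.75 ± 0.10, adjusted p = 2.81e-11). Of 23 tested members of the fuel list 4 were higher and 4 lower (34.8% called, against 47.7% of all genes), and Gpi1, a glycolytic enzyme, had 2728 to 2769 and 2700 to 2779 CPM. Of 9 genes of arginine and tryptophan use 2 were higher and 2 lower (44.4% called), with Gch1, which makes the cofactor of nitric oxide synthase, at −1.77 ± 0.25. Clock genes had 2 of 10 tested members higher and 2 lower (40.0% called). Their largest, Per1, had 4.8 to 6.82 and 0.858 to 4.12 CPM (−1.25 ± 0.39) and lost its call without CTL library 1, SAE library 1 or SAE library 2 (adjusted p 0.059, 0.0563 and 0.0662). Its log2 fold was −1.98 without SAE library 3.

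Ribosomal protein genes made a narrow shift. Of 54 tested members 39 were lower and 2 higher (75.9% called, against 47.7% of all genes, median −0.19). Calls rose with counts, to 57.5% of tested genes at a mean count of 200 to 1000 and 68.2% at 1000 or more. The part of count level in this share was not tested. Rplp0, a stalk protein of the large subunit, had 1043, 1076 and 1033 CPM in CTL libraries and 715, 726 and 714 in SAE libraries (−0.55 ± 0.04, adjusted p = 3.59e-11). Rpl32 had 512 to 555 and 385 to 398 CPM (−0.44 ± 0.05). Among p53 targets and growth-arrest genes 7 of 15 tested were lower and 1 higher, a share of calls (53.3%) close to that of all genes (47.7%). Their lowest, Pmaip1, the cell-death protein Noxa, was at −3.19 ± 0.21. Among cold-inducible and splicing genes 4 of 13 were higher and 1 lower (38.5% called, against 47.7% of all genes), with Hnrnpu at 0.71 ± 0.05.

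Of the genes in the study's title pathway, Hmox1, which encodes haem oxygenase 1, had 75.1, 100 and 63.5 CPM in CTL libraries and 19.6, 18.9 and 16.3 in SAE libraries (−2.12 ± 0.16, adjusted p = 1.59e-07). Nfe2l2, the gene of Nrf2, had 90.9, 104 and 91.5 CPM against 78.7, 69.1 and 55 (−0.50 ± 0.11), and Keap1, its repressor, was lower by −1.08 ± 0.20. Pik3r1 had 91.9 to 97.9 and 58.8 to 79.6 CPM (−0.45 ± 0.09), and Akt2 1.04 to 2.09 and 3.65 to 5.57 (1.45 ± 0.37). Pik3ca (0.65 ± 0.35) was not called, and Akt1 did not pass the filter.

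Markers of tissue that can adhere to hippocampus varied by library. The 8 tested choroid plexus markers of 15 listed summed to 1067, 833 and 660 CPM in CTL libraries and 1716, 1112 and 857 in SAE libraries, and all 8 were highest in SAE library 1 and lowest in SAE library 3 among the SAE libraries. 2 of them were called higher. Sostdc1, a signalling inhibitor made by this tissue, had 7.48, 7.93 and 7.94 CPM in CTL libraries and 88.4, 56.4 and 41.4 in SAE libraries (2.99 ± 0.37), where the summed level overlapped between the groups. Ttr, the defining marker, was not called (71 to 136 and 130 to 264 CPM). The 12 tested meningeal markers summed to 426 to 498 CPM in CTL and 412 to 691 in SAE libraries, with 4 higher (33.3% called). The 3 ependymal markers, all called higher, summed to 14 to 18.2 and 22.7 to 38.6 CPM. Lbp, an endotoxin-binding protein, was lower, with 212, 210 and 178 CPM in CTL libraries and 116, 70.3 and 53 in SAE libraries (−1.33 ± 0.32), the same order within SAE. Its log2 fold was −1.10 to −1.41 and its call was lost when any library but SAE library 1 was left out (adjusted p 0.0509 to 0.0984). The part of these tissues in the other differences was not tested.

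Markers of blood cells differed by cell type. The 3 tested neutrophil markers of 15 listed summed to 51.1, 46.8 and 65.6 CPM in CTL libraries and 3.16, 2.14 and 1.03 in SAE libraries. These 3 passed the filter through their CTL counts. Among members that did not pass, Mpo had 7, 3 and 7 counts in CTL and 7, 7 and 9 in SAE libraries. Retnlg had 7, 4 and 26 against 2, 2 and 2. S100a8, a calcium-binding protein that neutrophils hold in quantity, had 34.6, 36.7 and 37 CPM against 1.69, 0.429 and 0.412 (−5.38 ± 0.27, adjusted p = 1.19e-13), or −6.33 without SAE library 1. The 5 tested red blood cell markers summed to 613 to 642 CPM in CTL and 495 to 602 in SAE libraries, with 2 lower (40.0% called, against 47.7% of all genes). Of lymphocyte markers only Ccl5 passed the filter, and of border macrophage markers Mrc1 was higher and Chil3 and Lyve1 lower. The part of infiltrating cells in the differences of immune genes was not tested. Markers of striatum, thalamus and neocortex summed to 143 to 152, 10.4 to 11.7 and 59.6 to 66.8 CPM in CTL libraries and to 102 to 117, 12 to 17.3 and 66.6 to 73 in SAE libraries.

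The 3 CTL libraries were not alike in the genes that differed most. Of the 238 genes lower by over 4-fold, CTL library 2 was highest in 144 (60.5%) and CTL library 3 lowest in 149 (62.6%), against 32.7% and 33.7% of all tested genes. The highest CTL value was 6.23 times the lowest for Ccl2, 5.98 times for Ccl3, 4.30 times for Ptx3, 2.40 times for Gbp5 and 2.27 times for Gbp2. Ccl3 was lower by −6.57 on the log2 scale, and its call was lost without CTL library 1 or any SAE library (adjusted p 0.0578 to 0.086). Over all alternative fits its adjusted p reached 0.152. The highest CTL value was 1.04 times the lowest for H2-T23, 1.06 times for Msr1 and 1.07 times for S100a8. Summed over the 9 GTPases the CTL libraries held 2280, 3149 and 1493 CPM. Over the 10 acute-phase genes they held 5095, 5109 and 4708. Among genes called higher, CTL library 3 was highest in 936 of 1908 and CTL library 2 lowest in 910. In both directions CTL library 3 was thus the CTL library most often nearest to the SAE level. In genes with a group mean of at least 20 CPM, the median ratio of highest to lowest library in CTL was 1.36 for genes lower by over 4-fold and 1.11 for all genes.

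**Figure D4:**
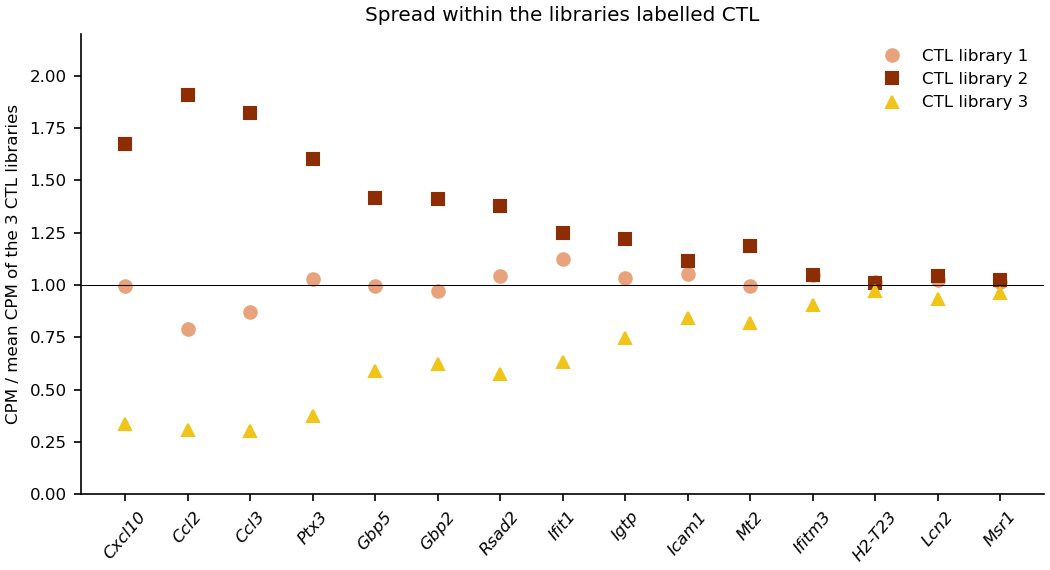
CPM of 15 genes in each CTL library, divided by the mean of the 3 CTL libraries; the line at 1 is that mean. Cxcl10, Ccl2, Ccl3 and Ptx3 spread widest, with library 2 highest and library 3 lowest, while H2-T23, Lcn2 and Msr1 lie close to 1.

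Single RefSeq transcript rows showed what sums over genes hide. Of 8317 rows with a mean count of at least 10, 3927 were called (47.2%), 1952 higher and 1975 lower. Of 511 genes with at least 2 tested rows, 24 had rows called in opposite directions. Ensa, a regulator of the phosphatase PP2A, had a row with 1340, 1432 and 1335 counts in CTL libraries and 1050, 987 and 1139 in SAE libraries (−0.39 ± 0.05). Its other row had 1385, 1467 and 1590 against 2288, 2389 and 2541 (0.68 ± 0.05, adjusted p = 1.46e-11). Nedd4, a ubiquitin ligase, had a main row with 702 to 735 and 888 to 894 counts (0.29 ± 0.06) and a minor row with 20 to 46 and 2 to 7 (−2.67 ± 0.41). Ctsc, a lysosomal protease that activates neutrophil enzymes, had rows at −1.05 ± 0.11 and 0.58 ± 0.16. The counts of rows that share exons are estimates of a split, and the file keeps no measure of its error.

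**Figure D5:**
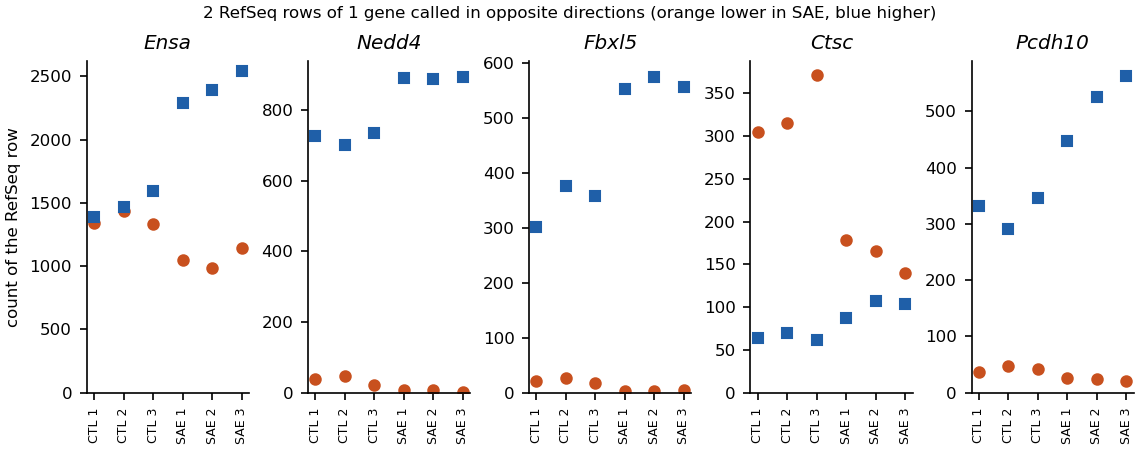
Counts of 2 RefSeq rows of 5 genes in each library, before scaling; orange rows were called lower and blue rows higher in SAE. In Ensa both rows start near each other in CTL libraries and part in SAE libraries.

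Genes with several RefSeq rows were thinly counted in this table. They made up 18307 of the symbols and held 10.1% of the counts, and 18.2% of them passed the filter. Whether reads that match several transcripts were left out of the table was not tested, so a low or zero count of such a gene need not mean a low level of its RNA. Genes with 1 row numbered 20591 and held 89.9%. Among RNA classes, protein-coding genes (6647 tested) had 1569 higher and 1663 lower, and long non-coding RNAs (1178 tested) had 313 higher and 210 lower. Of 41 small nucleolar RNA genes 1 was higher and 8 lower (22% called, against 47.7% of all genes). All 3 genes annotated as antisense RNA were higher: Dlx1as from 8.36 to 13.4 up to 37.1 to 38.8 CPM (1.76 ± 0.16), Emx2os by 1.07 ± 0.14 and Zfhx2os by 1.95 ± 0.32. Whether the counting used strand is not given in the sources used here, so reads of these genes and of their sense partners cannot be told apart.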

How the data were processed

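RNA of mouse hippocampus was sequenced after removal of ribosomal RNA, per the labels' protocols. The authors deposited 1 table of whole-number counts per RefSeq transcript; fastp and Salmon are named in the submitters' processing notes. Version, index and strand setting were not given in the sources used here. Of 120312 transcript rows, 120299 were named from a RefSeq gene table (GRCm38.p6), and their counts were summed per symbol. Genes with a mean count of at least 10 over the 6 libraries were scaled by TMM and tested with edgeR 4.0.16 (quasi-likelihood, robust; R 4.3.3), and p-values were adjusted by Benjamini-Hochberg over all genes tested, with 0.05 as threshold. CPM values use TMM-scaled library sizes, and SE is that of the log2 fold. The scripts were tested on simulated data. Bounds for genes without a count use 3 counts over the group, and intervals cover counting error only. Alternatives used DESeq2 1.42.0, limma 3.58.1 (chosen after seeing the data), other filters, 1 library left out, a replicate block, all 9 libraries or genes with 1 transcript row.

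The members and gene lists were chosen with earlier results of these data known. Genes were named by rule, apart from a few that are not reported here: the 8 highest and 8 lowest folds of calls whose groups did not overlap and whose average reached 5 CPM, the 5 most abundant called genes in each direction, up to 4 members of each list with the smallest p, the 3 called genes that varied most within each group (group mean of at least 20 CPM), and the genes of the study's title pathway. Chosen after their values were seen were Adamts1, Apln, Aqp4, Bdnf, C1ql2, Calb1, Ccl27a, Cd14, Ctsc, Cx3cl1, Cxcl1, Cxcl13, Dlx1as, Dusp1, Egr1, Emx2os, Ensa, Gbp2, Gbp5, Gfap, Glul, Gpi1, H2-Aa, H2-Eb1, Icam1, Ifit1, Ifngr1, Igtp, Il17d, Il6, Irak1, Irak4, Mobp, Mpo, Mt2, Nedd4, Nfkbia, Olig1, Pou3f1, Ptx3, Retnlg, Selp, Sgk1, Thbd, Ticam1, Ticam2, Tlr4, Trf, Tsc22d3, Ttr, Tyrobp, Vcam1, Vim, Wfs1, Zbtb16 and Zfhx2os.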

Additional observations from a re-analysis of the deposited data

How the results depend on the processing

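Every gene called here kept its direction under each alternative in which it was tested. Leaving out 1 library in turn gave 3367 to 3714 called genes, 1666 to 1843 higher, 1686 to 1871 lower, 1144 to 1341 past 2-fold, 3436 to 3799 transcript rows and 334 to 349 called list members, against 355 with all 6. Restricting the table to the 4676 genes with 1 transcript row gave 2511 called genes, 1265 higher and 1246 lower, with 753 past 2-fold, from fewer genes tested. A mean count of at least 50 left 447 genes past 2-fold, also from fewer genes. DESeq2's Wald test called 3113 genes and limma-voom 3770. Some list medians changed sign. With only 1-row genes, that of cold-inducible and splicing genes was −0.58, that of fuel genes 0.10 and that of thalamic markers −0.96, and with a mean count of at least 50 that of border macrophage markers was 1.48, each from fewer members. With 1-row genes the median of striatal markers was 1.20 (1 member) and that of transmitter receptors 1.23 (3 members). Medians near 0 that also changed sign under some alternatives were those of prostaglandin synthesis, pericyte, activity-induced, clock, and arginine and tryptophan genes. Of the named genes, none reversed under any alternative.

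Over all tested genes, deviations of same-numbered libraries from their group means correlated at 0.025, −0.033 and 0.018. The summed choroid plexus markers, however, fell from library 1 to library 3 in both groups. They summed to 1067, 833 and 660 CPM in CTL libraries and 1716, 1112 and 857 in SAE libraries. Whether same-numbered libraries share a batch or a dissection order was not tested. A fit with the replicate number as a block called 3822 genes, 1905 higher and 1917 lower, with 1282 past 2-fold, 3903 transcript rows and 364 list members. Ttr was called with the block (adjusted p = 2.52e-07).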
